A study of Mus musculus with 246 samples.

Results

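The MAPK feedback regulators described here were 10 genes chosen by symbol, Dusp1, Dusp4, Dusp5, Dusp6, Dusp14, Spry2, Spry4, Spred1, Mapk6 and Errfi1, of 56691 genes in the deposited table. The list was chosen with earlier results of these data known. All 10 were found under 1 identifier each, and all 10 passed the filter on low counts in each of 6 brain regions. The table covered poly-A RNA libraries from tissue punches of 41 adult male CD1 mice, an outbred strain, with 1 library per mouse and region. The cortical regions were the medial prefrontal cortex (mPFC, infralimbic and prelimbic) and the anterior cingulate cortex (ACC). The others were the nucleus accumbens (Nacc), the basolateral amygdala (BLA), the dorsomedial thalamus (DMT) and the ventral hippocampus (vHipp). For the Nacc, the study's methods name the shell and its introduction the core. Mice of Ctrl_Veh (Ctrl_Vehicle in the labels) were raised under standard conditions by dams that received the empty carrier gel. Mice of ELA_Veh (ELA_Vehicle in the labels) went through early life adversity, a cage with limited bedding and nesting material in the first days of life, with dams that received the same gel. Mice of ELA_SAFit2 went through the same adversity while their dams received SAFit2, an inhibitor of the stress-related co-chaperone FKBP51, in the same kind of gel, so that the pups took it up through milk. A control group with SAFit2 was not part of the samples, and the labels do not give the litter of a mouse. Within each condition, mice were taken either without a social encounter (NoInteraction, 7 mice per condition) or after 10 minutes with an unfamiliar mouse (SocialInteraction, 6 Ctrl_Veh, 7 ELA_Veh and 7 ELA_SAFit2 mice). The question addressed was how these genes differed between SocialInteraction and NoInteraction in each region, within each condition and pooled over the conditions.

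The mitogen-activated protein kinase (MAPK) cascade carries signals from receptor tyrosine kinases through Ras to the kinase ERK, and in neurons also signals of calcium entry and synaptic activity. Active ERK switches on genes whose products turn the cascade down again, which is why levels of such transcripts are used as a readout of recent signalling. The dual-specificity phosphatases (DUSPs) remove the activating phosphates from MAP kinases, Sprouty and Spred proteins act upstream at the level of Ras, and Errfi1 (MIG6) binds and inhibits the EGF receptor. Mapk6 encodes ERK3, an atypical MAP kinase with a short-lived protein.

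Promoter sequence was available in the RefSeq table (GRCm38.p6) for 8 of the 10 genes, with 1 window each for Dusp1, Dusp5, Dusp6, Dusp14, Spry2 and Spred1 and 2 each for Mapk6 and Errfi1. The 250 bases upstream of the start are shown for 4 genes, because Spry2 was called in the most regions, Mapk6 had the lowest adjusted p-values, Dusp1 varied most between mice in the cortical regions and Dusp5 held the serum response motif. Sequences run 5′ to 3′ on the strand of the gene, and capitals mark matches to the motifs searched. The regions are chr17:26508473-26508722 (minus strand) for Dusp1, chr19:53528895-53529144 (plus strand) for Dusp5, chr14:105896820-105897069 (minus strand) for Spry2 and chr9:75410017-75410266 (minus strand) for the first Mapk6 window.
Dusp1: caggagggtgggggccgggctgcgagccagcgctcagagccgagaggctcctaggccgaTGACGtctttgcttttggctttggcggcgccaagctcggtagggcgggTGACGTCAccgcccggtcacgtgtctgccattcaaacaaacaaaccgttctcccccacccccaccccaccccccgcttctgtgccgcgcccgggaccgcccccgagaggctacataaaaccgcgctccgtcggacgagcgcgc
Dusp5: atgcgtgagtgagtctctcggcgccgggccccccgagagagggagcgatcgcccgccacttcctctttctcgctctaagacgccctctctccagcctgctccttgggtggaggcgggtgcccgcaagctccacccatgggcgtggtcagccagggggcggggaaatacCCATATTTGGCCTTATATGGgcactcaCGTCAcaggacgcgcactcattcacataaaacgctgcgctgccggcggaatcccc
Spry2: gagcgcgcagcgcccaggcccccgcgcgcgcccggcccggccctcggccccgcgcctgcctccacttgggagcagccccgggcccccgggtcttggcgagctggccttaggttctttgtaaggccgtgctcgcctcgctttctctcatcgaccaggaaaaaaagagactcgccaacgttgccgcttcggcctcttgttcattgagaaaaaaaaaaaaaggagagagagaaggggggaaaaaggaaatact
Mapk6: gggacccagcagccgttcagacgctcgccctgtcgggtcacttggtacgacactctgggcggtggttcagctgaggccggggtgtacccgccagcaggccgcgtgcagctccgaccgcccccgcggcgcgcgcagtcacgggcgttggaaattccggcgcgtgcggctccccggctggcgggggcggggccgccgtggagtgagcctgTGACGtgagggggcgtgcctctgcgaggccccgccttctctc

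The motifs searched on both strands were the cAMP response element TGACGTCA, its shorter core TGACG, the CArG box of serum response factor, the EGR motif GCGTGGGCG, the AP-1 motif TGANTCA, the ETS motif CCGGAAGT and the glucocorticoid response element. The full cAMP response element stood in the Dusp1 window, beginning 143 bases before the start, and in the second Errfi1 window, 51 bases before the start. It was held by 1.79% of all 32851 windows of 300 bases. A full element holds the core on each strand, and the core also matched 191 bases before the Dusp1 start, 55 before the Dusp5 start and 42 before the Mapk6 start. The core was held by 20.8% of all windows. Dusp5 held a pair of adjacent CArG boxes, 82 and 72 bases before its start, a motif held by 1.63% of all windows. The EGR, AP-1, ETS and glucocorticoid motifs were not in any window of these 8 genes, and were held by 0.612%, 7.81%, 3.89% and 0.009% of all windows. None of the motifs stood in the Dusp6, Dusp14, Spry2 and Spred1 windows.

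Total counts lay between 20804219 and 43351397 per library. Summed levels of region marker genes went with the labels: striatal markers were highest in the Nacc, thalamic markers in the DMT, hippocampal markers in the vHipp and cortical markers in the ACC, while the BLA also held striatal markers (median 957 CPM, counts scaled to the library total, without interaction). In the Nacc, 12 of the 41 libraries resembled a mouse other than the labelled one, by 60 genes that differ between individual mice (median correlation -0.046 with the labelled mouse and 0.88 with the best match), and 8 of these 12 matched a mouse with the other interaction label. No library did so in the other 5 regions. The pooled Nacc response is given with and without these 12 libraries, which leaves 15 NoInteraction and 14 SocialInteraction libraries. Each run of 8 consecutive mouse numbers held mice of 1 interaction label only, in all 14 runs (7 of each label, 1 to 4 mice per run). The labels do not say what a run stands for, and the interaction and the run cannot be told apart. In tissue punches, fewer cells of a type and less RNA per cell also cannot be told apart.

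Levels without interaction are given on 1 normalization over the libraries of all regions. The Nacc values of these levels include the libraries that matched another mouse. Mapk6 stood near the same level in 5 regions and low in the vHipp, where its median was 34.3 CPM against 63.3 in the mPFC and 68.6 in the ACC. Spry2 was highest in the ACC (42.6 CPM) and lowest in the DMT (19.4 CPM). Spry4 went the other way, with 21.7 CPM in the DMT and between 8.96 and 12.4 CPM in the other regions. The DMT thus held the least of one Sprouty transcript and the most of the other.

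Spred1 was likewise highest in the ACC and lowest in the DMT, with 185 CPM in the ACC and 96 in the DMT. Dusp4 and Errfi1 were both highest in the vHipp, at 13.1 and 36.5 CPM, and second in the DMT. Dusp6 and Dusp14 were highest in the ACC and mPFC, Dusp6 at 47.1 and 40.8 CPM and Dusp14 at 45.3 and 46.1 CPM. Neighbours in these orders were counted as apart when their mean log2 levels differed by more than the larger SD over the 21 mice. By this measure the vHipp stood apart from the other regions for Mapk6, Dusp4, Dusp14 and Errfi1, the DMT for Spry4, Spry2, Spred1 and Dusp5, and the ACC and mPFC together from the others for Dusp6 and Dusp14, while the ACC and mPFC never stood apart from each other where they were neighbours. Dusp1 fell into 2 blocks, with the DMT, mPFC, ACC and Nacc above the BLA and vHipp. Per kilobase of exon, Spred1, Dusp14 and Spry2 were the most abundant of the 10 in the mPFC (25, 23.7 and 19.5 CPM per kb) and Spry4 and Dusp4 the least (1.88 and 1.98 CPM per kb).

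**Figure D1:**
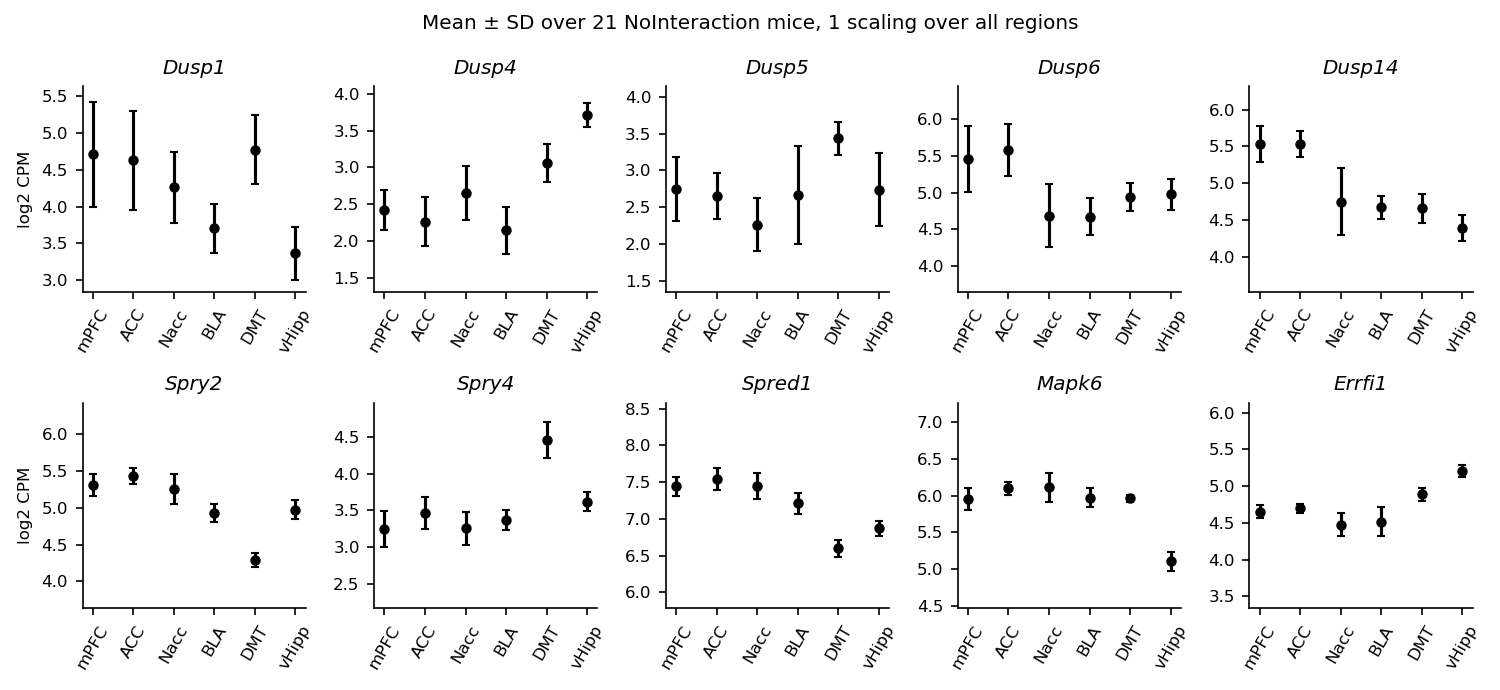
Levels of the 10 regulators in 6 regions without interaction. Each point is the mean log2 CPM of 21 mice, with the SD as bar, and each panel spans the same number of log2 units. Mapk6 is low in the vHipp, Spry4 high in the DMT, and Spry2 and Spred1 low in the DMT.

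Pooled over the 3 conditions, 5 of the 10 regulators were higher after social interaction in the mPFC, where 7.4% of all tested genes passed an adjusted p of 0.05 in edgeR's quasi-likelihood test. They were Spry2, Spry4, Spred1, Mapk6 and Dusp4. Because the list was chosen with earlier results of these data known, the shares of all genes are given as a description only. In the ACC 4 passed, Spry2, Spry4, Spred1 and Mapk6, against 4.15% of all genes. In the vHipp 2 passed, Spry2 and Spry4, against 1.21%, and in the BLA 1 passed, Spry2, against 1.49%. In the DMT 0 of 10 passed, where 1.6% of all genes did. There 5 regulators had an unadjusted p under 0.05, as did 12.7% of all genes, and DESeq2 called 1, Mapk6, which was lower. All 12 calls of edgeR were for higher levels after interaction, while of all genes called, between 55.2% in the BLA and 67.9% in the vHipp were higher. The mPFC had a median log2 fold change of 0.21 over the 10, the ACC and vHipp 0.15 each, the BLA 0.13 and the DMT 0.09, while that of all tested genes was 0.00 in each of these regions. With counts summed over the mice of each run of 8 numbers, which leaves 7 against 7 units, 2 regulators passed in the mPFC (Spry2 and Mapk6), 1 in the ACC (Mapk6) and 0 in the BLA, DMT and vHipp. The shares of all genes above belong to edgeR's fits of single libraries. None is given for these sums or for DESeq2, so their counts are descriptions only.

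**Figure D2:**
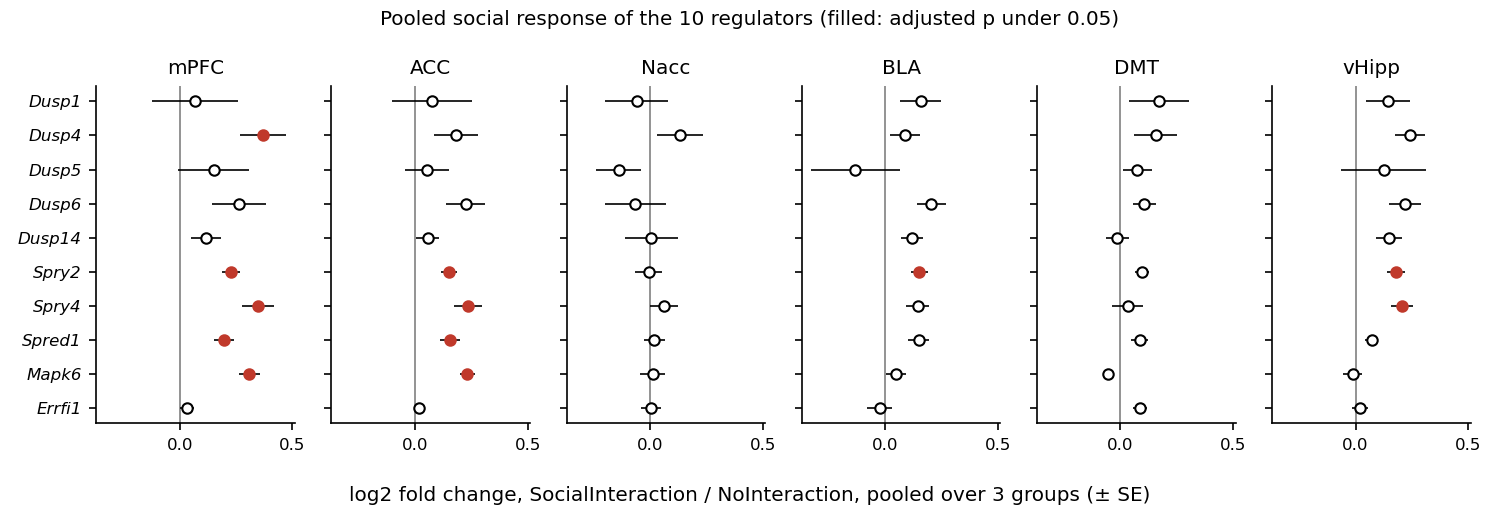
Pooled social response of the 10 regulators in each region. Points are log2 fold changes of SocialInteraction over NoInteraction from edgeR, bars are standard errors and filled points have an adjusted p under 0.05. Filled points lie right of 0 in the mPFC (5), ACC (4), vHipp (2) and BLA (1), and none is filled in the Nacc and DMT.

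Spry2, an inhibitor of receptor tyrosine kinase signalling toward Ras, was the regulator called in the most regions. In the mPFC the lowest, median and highest levels were 28.9, 39.9 and 45.2 CPM in the 21 NoInteraction mice and 40.3, 45 and 53.1 CPM in the 20 SocialInteraction mice. All 20 mice with interaction lay above the median without it and 10 lay above the highest mouse without it, so the groups overlapped only over the upper part of the NoInteraction range. The log2 fold change was 0.23 ± 0.04 (SE) with an adjusted p of 0.000125.

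In the ACC, Spry2 ran 35.7, 41.5 and 49.1 CPM without and 42.3, 46.9 and 57.1 CPM with interaction, a log2 fold change of 0.15 ± 0.03 (SE) and an adjusted p of 0.00658. In the BLA the values were 27.2, 31.1 and 38.4 and 31.6, 34.1 and 40.5 CPM, with 0.15 ± 0.04 (SE) and an adjusted p of 0.024. In these regions too, all 20 mice with interaction lay above the NoInteraction median. In the vHipp the values were 27.4, 29.7 and 36.4 and 29.9, 34.7 and 44.7 CPM, with 0.18 ± 0.04 (SE) and an adjusted p of 0.0109, and again all 20 lay above that median. In the DMT, where Spry2 was least abundant, 16 of 20 did so, and the difference of 0.10 ± 0.03 (SE) did not pass, with an adjusted p of 0.14.

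Spry4, the second Sprouty gene, had smaller counts and passed in the mPFC, ACC and vHipp. In the mPFC its levels were 7.24, 8.81 and 13.2 CPM without and 8.9, 11.5 and 16.3 CPM with interaction, 0.35 ± 0.07 (SE) on the log2 scale, with an adjusted p of 0.00141. All 20 mice with interaction lay above the NoInteraction median, but 4 lay above the highest mouse without it. In the ACC the log2 fold change was 0.24 ± 0.06 (SE, adjusted p = 0.0214) and in the vHipp 0.21 ± 0.05 (SE, adjusted p = 0.026). In the vHipp 9 of 20 mice with interaction exceeded the highest NoInteraction mouse. In the DMT, where Spry4 was most abundant, levels of 16.4, 21.9 and 28.3 CPM stood against 16.9, 23.3 and 31.2 CPM, a difference of 0.03 ± 0.07 (SE) that did not pass (adjusted p = 0.917). With the mean levels of endothelial and oligodendrocyte markers as covariates, Spry4 missed the threshold in the ACC and vHipp (adjusted p = 0.0852 and 0.0683).

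Spred1, a membrane-bound relative of the Sprouty proteins that holds Ras activity down through neurofibromin, passed in the mPFC and ACC. In the mPFC it measured 149, 168 and 211 CPM without and 164, 196 and 247 CPM with interaction, with 19 of 20 mice above the NoInteraction median. The log2 fold change was 0.20 ± 0.04 (SE, adjusted p = 0.00379). In the ACC it measured 144, 180.1 and 227 and 172, 204 and 267 CPM, 0.15 ± 0.04 (SE, adjusted p = 0.0369). The BLA difference was of like size, 0.15 ± 0.05 (SE), but did not pass (adjusted p = 0.0965), and the DMT and vHipp gave 0.09 ± 0.04 (SE) and 0.07 ± 0.03 (SE). With the marker covariates the BLA difference of Spred1 did pass (adjusted p = 0.0279).

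**Figure D3:**
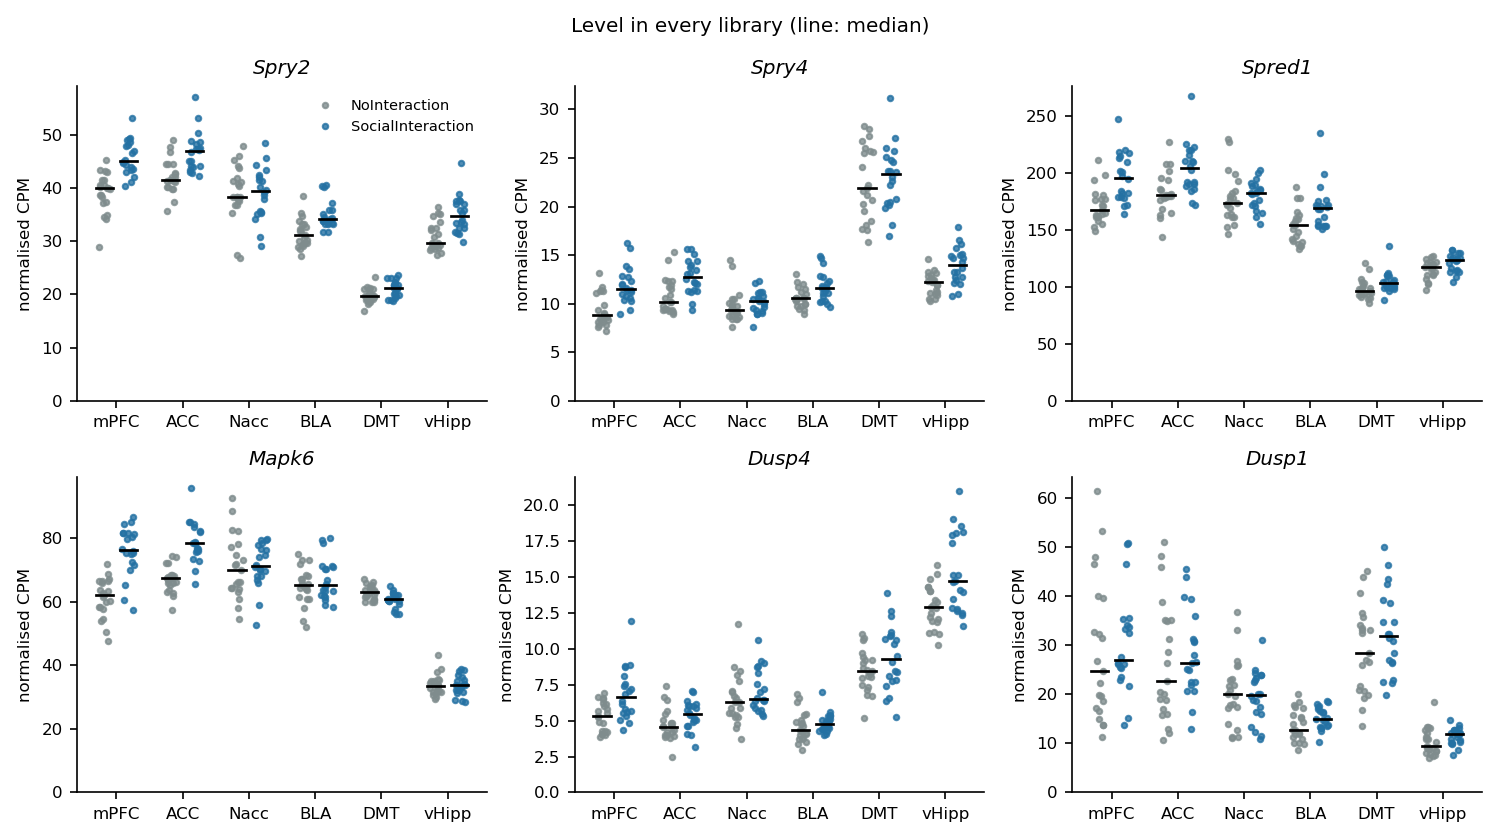
Level of 6 regulators in each library, in normalised CPM, by region and interaction. Grey points are NoInteraction mice, blue points SocialInteraction mice and black lines medians. For Mapk6, 15 of 20 SocialInteraction mice lie above the highest NoInteraction mouse in the mPFC, as do 16 in the ACC, 3 in the BLA and 0 in the DMT and vHipp, and Dusp1 spreads widely within both groups.

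Mapk6 differed most clearly in the 2 cortical regions. In the mPFC the 21 NoInteraction mice measured 47.8, 62.2 and 71.9 CPM and the 20 SocialInteraction mice 57.4, 76.3 and 86.8 CPM. Of the latter, 15 lay above the highest NoInteraction mouse, and the log2 fold change was 0.31 ± 0.05 (SE) with an adjusted p of 3.19e-05. In the ACC the values were 57.3, 67.4 and 74.4 and 65.8, 78.6 and 95.8 CPM, with 16 of 20 above the highest NoInteraction mouse, 0.23 ± 0.03 (SE) and an adjusted p of 1.98e-05. The groups overlapped in both regions.

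In the BLA, Mapk6 measured 52.2, 65.5 and 75 CPM without and 58.5, 65.2 and 80.1 CPM with interaction (0.05 ± 0.04 SE, adjusted p = 0.693). In the vHipp it measured 29.5, 33.6 and 43.3 and 28.5, 33.7 and 38.8 CPM (-0.01 ± 0.04 SE, adjusted p = 0.951). In the DMT it measured 59.9, 63.3 and 67.1 and 56.1, 60.8 and 65.1 CPM, a log2 fold change of -0.06 ± 0.02 (SE) with an adjusted p of 0.0852 in edgeR and 0.0449 in DESeq2. There 2 of 20 mice with interaction lay above the NoInteraction median.

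Whether the pooled response itself differed between the regions was tested in 1 fit of all libraries, with an F test over the 6 responses. Mapk6 passed, with an adjusted p of 1.48e-06, as did 0.247% of the 17381 genes tested. Spry2 (adjusted p = 0.264) and Spry4 (adjusted p = 0.387) did not pass, and the other 7 had adjusted p-values of 0.953 or more. The 6 libraries of a mouse share its number, and with the mouse number as a block, where 0.581% of all genes passed, Spry4 also did (adjusted p = 0.0126), while Mapk6 kept an adjusted p of 2.2e-06. Leaving out the 12 mismatched Nacc libraries, Mapk6 had an adjusted p of 7.56e-07. Without the Nacc as a whole, the adjusted p of Mapk6 was 1.76e-07 without the block and 3.11e-08 with it, and that of Spry4 0.555 and 0.0172. A call of Spry2 or Spred1 in some regions and its absence in others is thus not shown to be a difference between regions.

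Dusp4, a nuclear phosphatase of ERK, was called in the mPFC alone. It measured 3.83, 5.33 and 6.94 CPM in NoInteraction and 4.35, 6.62 and 11.9 CPM in SocialInteraction mice, and 9 of 20 mice with interaction exceeded the highest mouse without it. The log2 fold change was 0.37 ± 0.10 (SE, adjusted p = 0.0185), the largest of the 60 pooled member values. In the vHipp, where it was most abundant, it measured 10.3, 12.9 and 15.8 and 11.6, 14.7 and 21 CPM, 0.24 ± 0.07 (SE), with an adjusted p of 0.0595 in edgeR and 0.0256 in DESeq2. Its differences in the ACC (0.18 ± 0.10 SE), DMT (0.16 ± 0.10 SE) and BLA (0.09 ± 0.07 SE) did not pass.

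Dusp6, the cytoplasmic ERK phosphatase, did not pass in any region. Its unadjusted p in edgeR was under 0.05 in the mPFC, ACC, BLA, DMT and vHipp. So was that of 19.5%, 17%, 14.8%, 12.7% and 12.9% of all genes, in that order, and these regions come from the same mice. In the ACC Dusp6 measured 29.6, 45.6 and 76.3 CPM without and 35, 56.9 and 66 CPM with interaction, and 19 of 20 mice lay above the NoInteraction median. The difference of 0.23 ± 0.09 (SE) had an adjusted p of 0.147, and the highest mouse there carried the NoInteraction label. In the BLA the difference was 0.20 ± 0.07 (SE, adjusted p = 0.0991, and 0.0494 with the marker covariates). In the mPFC, vHipp and DMT it was 0.26 ± 0.12 (SE), 0.22 ± 0.07 (SE) and 0.11 ± 0.05 (SE).

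Dusp1, an immediate early phosphatase of ERK, p38 and JNK, showed the widest spread of the 10 in the mPFC and ACC and no called difference. In the mPFC it measured 11.4, 24.8 and 61.5 CPM in NoInteraction and 13.8, 27 and 51 CPM in SocialInteraction mice, and the highest mouse carried the NoInteraction label. The log2 fold change was 0.07 ± 0.19 (SE, adjusted p = 0.898). Across the other regions its differences ran from -0.06 in the Nacc to 0.17 in the DMT, all with adjusted p-values of 0.439 or more.

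Dusp5, a nuclear ERK phosphatase, had a few high libraries in both groups. In the BLA it measured 3.75, 5.33 and 15.6 CPM without and 4.21, 5.41 and 14.1 CPM with interaction, and in the vHipp 3.97, 6.31 and 10.9 and 3.34, 6.44 and 17.9 CPM. Its differences ran from -0.14 in the Nacc to 0.15 in the mPFC and none passed. Dusp14, a phosphatase that lacks the kinase-binding domain of the larger DUSPs, reached 0.15 ± 0.06 (SE) in the vHipp (adjusted p = 0.237) and 0.12 ± 0.05 (SE) in the BLA (adjusted p = 0.221). Errfi1, the inhibitor of the EGF receptor, was the steadiest of the 10 in the mPFC and ACC, with 21.9, 24.3 and 27.9 CPM without and 22.7, 25.2 and 28.8 CPM with interaction in the mPFC. Its difference there was 0.03 ± 0.03 (SE), and the DMT gave its largest, 0.09 ± 0.03 (SE), which did not pass (adjusted p = 0.132).

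In the Nacc, 0 of the 10 regulators passed and 0 had an unadjusted p under 0.05. DESeq2 also called 0, and 0% of all 15881 genes passed in edgeR, with 391 (2.46%) at an unadjusted p under 0.05. Without the 12 libraries that matched another mouse, again 0 of the 10 passed and 0.0256% of all genes did. Spry4 had an unadjusted p of 0.0125. The median log2 fold change of the 10 went from 0.01 to 0.08, Dusp4 from 0.13 to 0.22 and Dusp1 from -0.06 to 0.12. Spry4 went from 0.06 ± 0.06 (SE) to 0.18 ± 0.07 (SE) and Spry2 from -0.01 ± 0.06 (SE) to 0.08 ± 0.06 (SE), with adjusted p-values of 0.517 and 0.864. Mapk6 stayed at 0.00 ± 0.07 (SE). Spry4 then measured 7.59, 9.12 and 14.4 CPM in 15 NoInteraction and 8.92, 10.5 and 12.3 CPM in 14 SocialInteraction libraries.

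With counts summed over the 6 regions under each mouse number, the mouse number was the unit. The same 5 regulators as in the mPFC then passed, where 8.56% of all genes did. Their log2 fold changes were 0.20 ± 0.05 (SE) for Dusp4, 0.16 ± 0.05 (SE) for Spry4, 0.12 ± 0.02 (SE) for Spry2, 0.11 ± 0.03 (SE) for Spred1 and 0.09 ± 0.02 (SE) for Mapk6. Summed Spry2 measured 30.8, 34.1 and 36.5 CPM without and 33, 37.2 and 39.5 CPM with interaction, and 15 of 20 mice lay above the highest NoInteraction mouse. Dusp6 had 0.16 ± 0.07 (SE) and did not pass (adjusted p = 0.201). For 12 of the 41 mouse numbers the sum includes a Nacc library that resembled another mouse. Without the Nacc the same 5 passed, with Spry2 at 0.15 ± 0.02 (SE). With the runs of 8 mouse numbers summed, 2 of the 10 passed, Spry2 and Mapk6. The share of all genes in that fit is not given. In a permutation test of the mean log2 CPM of each mouse over the 6 regions, with 100000 shuffles of the interaction label within conditions (two-sided), p was 1e-05 for Spry2, the smallest these shuffles can give, 2e-05 for Mapk6, 0.00034 for Spry4, 0.00039 for Spred1 and 0.0015 for Dusp4. These 6-region means also hold the mismatched Nacc libraries. Over 5 regions without the Nacc, chosen after seeing the data, p in this test was 1e-05 for Spry2 and 2e-05 for Mapk6. It was 6e-05 for Spred1, 0.00016 for Spry4 and 0.0005 for Dusp4. The shuffles treat mice as independent and do not keep the runs of 8 together. Their p-values are not adjusted. They were computed for the 10 regulators alone, so no share of all genes stands beside them.

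Within the single conditions, 3 of 180 tests passed in edgeR. The Nacc tests among them include the libraries that matched another mouse. DESeq2 called 2 within Ctrl_Veh, 1 within ELA_Veh and 5 within ELA_SAFit2, and fits of the 2 compared groups alone called 0, 0 and 3. Shares of all genes are not given for DESeq2 or for these fits of 2 groups, and those below are edgeR's. In Ctrl_Veh edgeR called 1 of 60, Spry2 in the mPFC, against 0.0326% of all gene and region tests. The 7 NoInteraction mice measured 34.2, 38.3 and 40.2 CPM and the 6 SocialInteraction mice 43.5, 46.3 and 49.3 CPM, without overlap, and the log2 fold change was 0.30 ± 0.07 (SE, adjusted p = 0.044). This call was lost with median-of-ratios size factors, without the count filter and in a fit of these 13 libraries alone.

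In ELA_SAFit2 it was also 1 of 60, Mapk6 in the mPFC, against 0.224% of all tests. It measured 54.1, 58.4 and 66.7 CPM in 7 and 65.2, 81.5 and 85.3 CPM in 7 mice, 0.40 ± 0.08 (SE, adjusted p = 0.00547), with 1 mouse of the second group inside the range of the first. In ELA_Veh it was 1 of 60, Mapk6 in the ACC, against 0.0105%. It measured 57.3, 67.5 and 74.4 and 72.9, 82.4 and 95.8 CPM, 0.30 ± 0.05 (SE, adjusted p = 0.0262), again with 1 mouse inside that range. The ELA_Veh call was lost in a fit of these 14 libraries alone.

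Whether a response differed between conditions was tested directly, ELA_Veh against Ctrl_Veh and ELA_SAFit2 against ELA_Veh in each region. Of these 120 tests 0 passed in edgeR and 0 in DESeq2, while 0.0116% of the tests over all genes passed in edgeR. An unadjusted p under 0.05 was found in 1 of the 120, against 4.38% of the tests over all genes. The Nacc tests here also include the libraries that matched another mouse. In the mPFC, the Ctrl_Veh, ELA_Veh and ELA_SAFit2 responses of Mapk6 were 0.31, 0.22 and 0.40, and those of Spry2 0.30, 0.14 and 0.24. The Spry2 response of ELA_Veh minus that of Ctrl_Veh was -0.16 ± 0.09 (SE, adjusted p = 0.837). A call in one condition and not in another is thus not shown to be a difference between conditions.

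Comparing the conditions themselves, 0 of 120 tests passed without interaction, where 0.00105% of all tests over all genes did. An unadjusted p under 0.05 was found in 6 of the 120, against 4.88% of the tests over all genes. After interaction 0 of 120 passed, against 0.000526% over all genes, and 5 had an unadjusted p under 0.05, against 4.39%. DESeq2 called 0 in both. Libraries that matched another mouse are included in the Nacc tests of these comparisons too. The smallest unadjusted p was that of Dusp4 in the BLA without interaction, -0.50 ± 0.12 (SE) for ELA_SAFit2 minus ELA_Veh, with an adjusted p of 0.741. The 7 ELA_Veh mice measured 3.98, 5.05 and 6.58 CPM and the 7 ELA_SAFit2 mice 2.98, 3.7 and 4.63 CPM there.

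How the regulators varied among mice of the same group was described from residuals, each library's log2 CPM minus the mean of its region, condition and interaction. The residual SD of Dusp1 in the mPFC was 0.64, that of Dusp6 0.39, that of Spry2 0.13 and that of Errfi1 0.09. A mouse high in Dusp1 in one cortical region was high in the other, and residuals of the mPFC and ACC of the same mouse had a Pearson correlation of 0.96 over 41 mice. The mean over the 10 pairs of the 5 regions other than the Nacc was 0.83 for Dusp1, 0.52 for Dusp6, 0.46 for Spred1 and 0.44 for Spry4, against a median of 0.12 over 15173 genes. The other 6 ran from 0.05 for Dusp5 to 0.22 for Dusp4, with Mapk6 at 0.07 and Spry2 at 0.14. Spred1 was highest in the same ELA_Veh SocialInteraction mouse in the mPFC, ACC, BLA and DMT, at 247, 267, 235 and 136 CPM. These correlations are descriptions, since punches of a mouse share its history and handling.

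**Figure D4:**
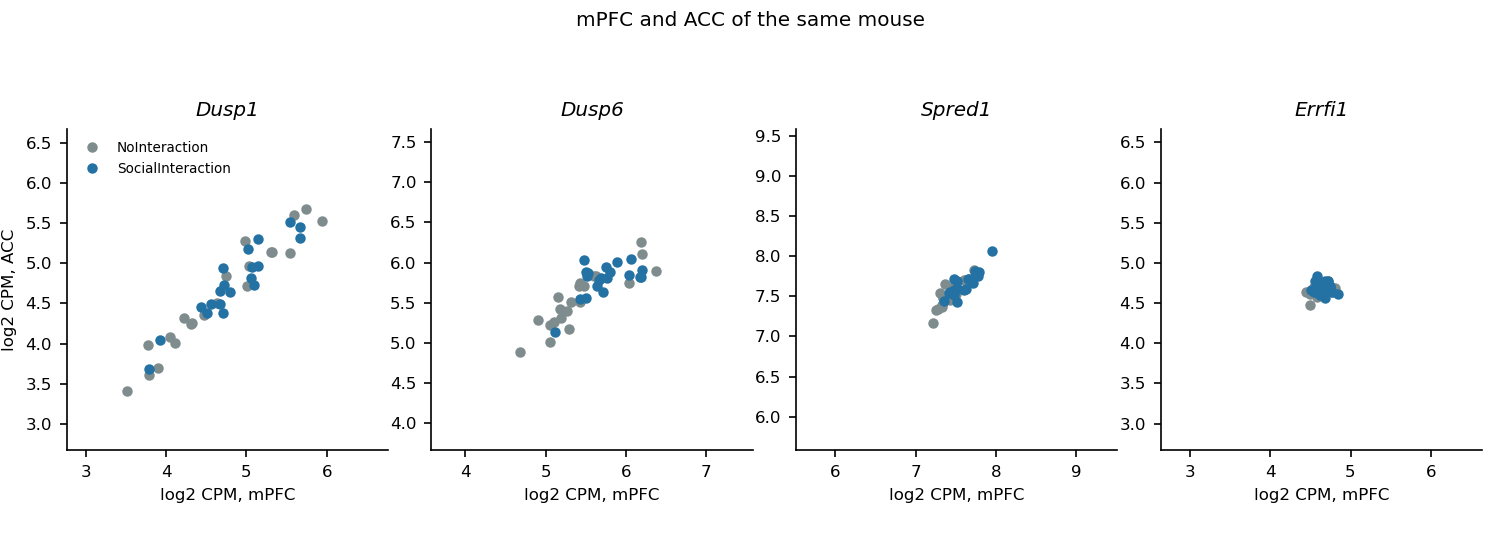
Log2 CPM in the mPFC and ACC of the same mouse for 4 regulators. Each point is 1 of 41 mice, coloured by interaction, and all panels span the same range. Dusp1 and Dusp6 stretch along the diagonal with grey and blue points mixed, Spred1 less, and Errfi1 forms a compact cloud.

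The genes whose residuals over all libraries, the mismatched Nacc libraries included, were most like those of Dusp1 were Fos (0.88), Arc (0.85) and Nr4a1 (0.84), which are immediate early genes. Those most like Dusp6 were Nr4a1 (0.80), Egr1 (0.79) and Junb (0.73), of the same class. Fos itself did not pass in any region (log2 fold change 0.31 ± 0.36 (SE) in the mPFC). Spry4 was nearest to Midn (0.58), Sik1 (0.51) and Gpr3 (0.51), Dusp4 to Irs2 (0.53), Spry4 (0.49) and Cyfip1 (0.48), and Spry2 to Chn1 (0.59), Slc7a4 (0.55) and Brk1 (0.54). Spred1 was nearest to Per2 (0.66), Jak2 (0.65) and Top1 (0.62), and Mapk6 to Bend6 (0.63) and Samd5 (0.62). Dusp14 was nearest to Synpo (0.76), Inka2 (0.74) and Pgbd5 (0.73), Dusp5 to Raver2 (0.66), Tuba8 (0.63) and Errfi1 (0.61), and Errfi1 to Susd6 (0.62), Dusp5 (0.61) and Ppm1e (0.61).

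Among the 10 regulators, residuals of Dusp1 and Dusp6 went together (0.66), as did those of Dusp5 and Errfi1 (0.61) and of Dusp6 and Dusp14 (0.54). Mapk6 went slightly against Dusp14 (-0.29) and Errfi1 (-0.23) and with Spred1 (0.30). Spry2 and Spry4, both called in the mPFC, ACC and vHipp, had a residual correlation of 0.10. Libraries of a mouse and region share their punch and depth, and these correlations are descriptions over libraries that are not independent.

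Other genes of the pathway were counted in the same pooled fits, with log2 fold changes in parentheses and none called in the Nacc. Of 3 other tested Sprouty and Spred genes, Spred2 (0.22) and Spred3 (0.15) passed in the mPFC and none in the other regions, and Spry1 gave 0.09 in the mPFC without passing. Of 7 other MAPK phosphatases 0 passed in any region, of 7 Ras GTPase activators Rasal2 passed in the mPFC (0.11) and vHipp (0.15), and of 11 genes of the p38 and JNK cascades (10 tested in the DMT) Mapk11 passed in the ACC (0.19). Of 11 receptor tyrosine kinases, 5 were higher in the mPFC, Igf1r (0.21), Ntrk3 (0.20), Egfr (0.19), Ntrk2 (0.12) and Insr (0.05), and Igf1r, the receptor of insulin-like growth factor, passed in the ACC, BLA and vHipp as well. The median log2 fold change in the mPFC was 0.15 over the other Sprouty and Spred genes, 0.04 over the other phosphatases and 0.10 over the receptors, against 0.00 over all tested genes. Among 23 genes of the ERK cascade itself, Mapk3, which encodes ERK1, was lower in the mPFC (-0.18) and ACC (-0.17), and Rps6ka1 (-0.12) was lower and Rps6ka3 (0.14) higher in the mPFC.

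Mapk4, which encodes ERK4, the close relative of ERK3, was higher in the mPFC (0.32), and Mapkapk5, the kinase that both bind, was lower there (-0.07). Of 17 transcription factors that ERK induces or activates (16 tested in the DMT), 4 were higher in the mPFC, Egr3 (0.89), Fosb (0.85), Fosl2 (0.59) and Elk4 (0.10), 4 in the ACC, 3 each in the BLA and DMT and 1 in the vHipp. Fosb was among them in all 5 regions, and was the only one of 13 activity-induced genes to pass in the mPFC. In the DMT, where none of the 10 regulators passed in edgeR, the log2 fold change of Fosb was 0.81 and that of Egr3 0.70. Of 10 genes that glucocorticoids induce, the mPFC and ACC had 3 each that were higher, the BLA 2, the DMT 4 and the vHipp 1. Fkbp5, which encodes FKBP51, was among them in all 5 regions, with 0.39 in the mPFC and 0.24 in the vHipp. The 4 in the DMT were Cdkn1a (0.88), Mt2 (0.40), Fkbp5 (0.36) and Tsc22d3 (0.32).

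Markers of other cell types were counted in the same pooled fits. In the mPFC 2 of 4 markers of oligodendrocyte precursors were higher, Cspg4 (0.21) and Olig2 (0.18), and the summed level of the 4 ran from 122 to 161 CPM without and from 130.5 to 159.6 CPM with interaction. Cspg4 also passed in the ACC (0.16) and BLA (0.14), and in the ACC Gja1 of 5 astrocyte and P2ry12 of 5 microglia markers were lower (-0.10 and -0.17). No neuron, oligodendrocyte, endothelial, mural or red cell marker passed in any region. No choroid plexus or region marker passed either. Striatal markers had a median log2 fold change of 0.26 in the ACC, 0.22 in the BLA and 0.29 in the DMT. Cortical markers had 0.21 in the BLA and thalamic markers -0.33 in the vHipp. The other medians of region markers lay between -0.08 and 0.11. The median log2 fold change of the mural and fibroblast markers was -0.18 in the mPFC and -0.28 in the ACC, that of the oligodendrocyte markers -0.20 in the vHipp, and that of the choroid plexus markers 1.08 in the DMT, against -1.47 for the same markers in vHipp punches. Summed over the list, choroid plexus levels in DMT punches ran from 5.02 to 1079 CPM without and from 6.3 to 1407 CPM after interaction. BLA punches held more, from 27.1 to 5788 CPM (median 2361) without and from 23.6 to 5234 CPM (median 2982) after interaction. With endothelial and oligodendrocyte levels as covariates, 5 regulators passed in the mPFC, 3 each in the ACC and BLA, and 1 in the vHipp. The shares of all genes that passed with these covariates are not given, so these counts are descriptions only. The part of the precursor, mural, choroid plexus and region markers in these results was not tested.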

How the data were processed

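The deposited table, named as salmon output, held estimated counts per gene, which the authors made from poly-A libraries. The submitters' processing notes name STAR, DESeq2 and the build GRCm39 (mm39). These expected counts were rounded to whole numbers (12.12% of the values were not whole). In each region, tests covered protein-coding genes whose counts summed to 100 or more and were above 0 in 6 or more libraries. Each region was fitted in edgeR 4.0.16 (R 4.3.3, TMM, quasi-likelihood test) with the 6 groups of condition and interaction in 1 model, and the pooled response was the mean of the 3 conditions' responses. P-values were adjusted by Benjamini-Hochberg over all genes tested, with calls at 0.05. CPM carry TMM factors. DESeq2 1.42.0, limma 3.58.1 and other scalings, filters, covariates and sample sets were alternatives. Scripts were tested on simulated data. The mouse number in the labels links the 6 libraries labelled as the same animal. Named genes were the 10 members, genes of pathway and marker lists that passed, and for each member the 3 genes with the most similar residuals. A few genes that this rule names are not reported here. Spry1 and Fos were named after their values were seen. The members and lists were chosen with earlier results of these data known.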

Additional observations from a re-analysis of the deposited data

Results flagged for a closer look

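Of 132 groups of 6 or 7 mice, 13 held a mouse set apart from the rest of its group by a gap that was large against the range of the group, and chance flags about 1 in 20 groups. Spred1 was set apart in the same ELA_Veh SocialInteraction mouse in the ACC (267 CPM, the next mouse at 220) and with regions summed (192 CPM). This mouse was also the lowest of its group for summed Spry2 (34.5 CPM). Its sums include a Nacc library that resembled another mouse (correlation -0.17 with the labelled mouse and 0.91 with the best match). In the ACC alone it had 53.1 CPM of Spry2, where the highest mouse had 57.1 CPM. Another mouse, ELA_SAFit2 after interaction, was set apart in the mPFC for Dusp4 (11.9 CPM, the next at 8.08) and for Spry4 (16.3 CPM, the next at 12.4). A Ctrl_Veh NoInteraction mouse was highest for Spry4 in the ACC (12.4 CPM) and with regions summed (14.9 CPM). The Nacc library in this sum also resembled another mouse (correlation 0.05 with the labelled mouse and 0.87 with the best match).

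The other flagged values stood alone. In NoInteraction mice they were the highest summed Dusp4 of Ctrl_Veh (8.18 CPM), the highest summed Dusp5 of ELA_Veh (9.04 CPM), the lowest Spry2 of ELA_SAFit2 in the mPFC (28.9 CPM) and the highest Spry4 of ELA_SAFit2 in the ACC (14.5 CPM). In SocialInteraction mice they were the lowest Mapk6 of Ctrl_Veh in the ACC (65.8 CPM) and the highest Spry2 of ELA_SAFit2 in the BLA (40.5 CPM). The Mapk6 response was set apart because it differed between regions, with an adjusted p of 1.48e-06 in edgeR's F test.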

How the results depend on the processing

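With counts summed over runs of 8 mouse numbers, the mPFC had 2 called regulators, the ACC 1, the BLA 0, the vHipp 0 and the regions summed 2. The runs coincide with the interaction labels, and this alternative also leaves fewer units, 7 against 7. With the run as a random effect in limma-voom, an alternative chosen after seeing the data, each of the 70 pooled member values stayed on its side of the threshold. The fitted correlation within runs lay between -0.01 (Nacc) and 0.04 (regions summed), so this fit was close to one without runs. It cannot tell run and interaction apart. The 70 values also kept their sides with median-of-ratios size factors, without the count filter and with all gene types. With endothelial and oligodendrocyte covariates 3 were called in the BLA and 1 in the vHipp. DESeq2 called 1 in the DMT, 2 within Ctrl_Veh and 5 within ELA_SAFit2. Within Ctrl_Veh 0 were called with median-of-ratios size factors, 0 without the count filter and 0 with the 2 groups compared alone. With only the 2 groups compared, 0 were called within ELA_Veh and 3 within ELA_SAFit2. The cause was not tested. Shares of all genes are not given for the sums by run, the marker covariates, DESeq2 or the fits of 2 groups. These counts of calls are thus descriptions only. With the mouse number as a replicate block, 2 regulators differed between regions, Mapk6 and Spry4, and with the block and without the Nacc, chosen after seeing the data, again 2. The block raised the share of all genes that differed from 0.247% to 0.581%. Without the Nacc as a whole, also chosen after seeing the data, 1 regulator differed between regions and 5 were called with regions summed. No value changed sign past the threshold. The permutation test over 6 regions put Dusp6 (p = 0.016) and Dusp14 (p = 0.037) under 0.05, without adjustment. Over 5 regions without the Nacc, chosen after seeing the data, the same test gave p of 0.0019 for Dusp6 and 0.0084 for Dusp14. The DESeq2 likelihood ratio test of the region difference was not run.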
